A study of Mus musculus with 28 samples.

Results

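Synaptotagmin 1 (Syt1) and synaptotagmin 4 (Syt4), the SNARE proteins Snap25 and Vamp2, the vesicle proteins synaptophysin (Syp) and synapsin 1 (Syn1), the small GTPase Rab3a, and complexin 1 (Cplx1) and complexin 2 (Cplx2) are genes of the machinery that stores and releases transmitter. They were listed by name, with earlier results of these data known, and make up 9 of the 19421 genes in the deposited table. All 9 were among the 16837 genes that reached 10 normalised counts in at least 2 libraries and were tested. Each gene was followed in RNA-seq libraries from 7 mouse embryonic stem cell (ESC) lines, in which doxycycline (Dox) switches on Atoh1, Gfi1 or Pou4f3 alone (iAtoh1, iGfi1, iPou4f3), in pairs (iG+A, iG+P, iP+A) or all together (iGPA). Every line was derived from A2loxCre ESCs and carried a single cassette that also encodes mVenus, with a FLAG tag on Atoh1 and a Myc tag on Pou4f3. ESCs were grown as embryoid bodies (EBs), Dox was added at 2 µg/ml on day 4 for 48 h, and mVenus+ cells were sorted on day 6. The untreated libraries (Ctrl) came from whole, unsorted day 6 EBs of the same line without Dox. Dox and sorting therefore cannot be told apart in any Dox effect given here. Each of the 14 groups had 2 libraries, grown from different clones of a line according to the series text.

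A synaptic vesicle is held near the membrane, primed by the SNARE proteins and complexins, and fused when calcium binds a synaptotagmin. Synaptophysin and synapsins sit on the vesicle, and Rab3 proteins guide it to its release site. Neurons use this set at conventional synapses, whereas cochlear hair cells, which Atoh1, Gfi1 and Pou4f3 help to specify, release transmitter at ribbon synapses with a partly different set of proteins. In libraries made from bulk RNA, more cells that express a gene and more RNA per cell cannot be told apart.

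The 9 genes lie on 8 chromosomes of NCBIM37, the build that corresponds to the mm9 transcripts used for quantification. Syt1 spans chr10:107934706-108448038 on the minus strand and Syt4 chr18:31597462-31607069 on the minus strand. Snap25 spans chr2:136539189-136608164 and Vamp2 chr11:68901992-68905886, both on the plus strand. Syp spans chrX:7215597-7230382 on the plus strand and Syn1 chrX:20437637-20498130 on the minus strand. Rab3a spans chr8:73278578-73282576 on the plus strand, Cplx1 chr5:108947573-108979043 on the minus strand and Cplx2 chr13:54472713-54485278 on the plus strand. Timp1 lies within Syn1 on the opposite strand at chrX:20447292-20451861, and 0 of their exons overlap. Counts were made on whole genes, so the values describe all transcripts of a gene together.

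RefSeq promoter windows (GRCm38.p6) were held for 6 of the 9 genes, in 8 windows, because Rab3a and Syt1 have a pair each. The 250 bases before each start were searched on both strands for the E-box, written CANNTG, to which factors of the Atoh1 type bind. The E-box forms CAGCTG on the one hand and CAGATG on the other were also counted separately, and each of them is an E-box match too. The other motifs were the core of POU sites, ATTAAT, the core of Gfi1 sites, written AATCNNNGC, and the left part of the element that the neuronal repressor REST binds, TTCAGCACC. The stretches below belong to Syt1, Rab3a, Syp and Cplx1, whose levels rose with Dox in at least 1 line, and to Syn1, whose level did not pass the threshold in any. Each ends at its start or at the first base that GENCODE M1 holds in a protein-coding transcript, and capitals mark every motif match.

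Syp, chrX:7638330-7638470, plus strand: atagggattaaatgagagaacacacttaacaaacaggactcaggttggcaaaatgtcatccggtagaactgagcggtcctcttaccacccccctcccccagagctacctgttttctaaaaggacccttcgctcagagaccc

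Rab3a, first window, chr8:70754453-70754678, plus strand: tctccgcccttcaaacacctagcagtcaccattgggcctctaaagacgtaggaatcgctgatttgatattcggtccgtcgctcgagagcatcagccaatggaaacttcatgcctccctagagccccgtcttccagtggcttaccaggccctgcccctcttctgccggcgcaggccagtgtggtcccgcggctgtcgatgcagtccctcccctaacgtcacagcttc

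Syt1, first window, chr10:109010976-109011225, minus strand: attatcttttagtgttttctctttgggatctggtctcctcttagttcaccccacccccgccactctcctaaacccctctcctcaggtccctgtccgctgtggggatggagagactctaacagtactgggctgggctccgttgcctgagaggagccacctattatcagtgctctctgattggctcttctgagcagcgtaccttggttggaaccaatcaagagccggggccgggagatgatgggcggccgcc

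Cplx1, chr5:108550028-108550277, minus strand: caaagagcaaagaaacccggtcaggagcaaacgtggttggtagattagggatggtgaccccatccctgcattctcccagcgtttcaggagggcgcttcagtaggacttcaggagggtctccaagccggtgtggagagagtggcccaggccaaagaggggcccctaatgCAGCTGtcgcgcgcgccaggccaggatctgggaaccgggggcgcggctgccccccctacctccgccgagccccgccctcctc

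Syn1, chrX:20921005-20921168, minus strand: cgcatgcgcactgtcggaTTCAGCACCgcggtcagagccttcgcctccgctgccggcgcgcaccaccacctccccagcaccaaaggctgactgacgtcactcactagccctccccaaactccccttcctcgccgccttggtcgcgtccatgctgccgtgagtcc

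The Syp window and the first windows of Rab3a and Syt1 held none of these motifs. An E-box of any form was in 66.2% of 32851 windows of the same length and in 4 of the 8 windows of the vesicle genes. The same 4 windows held the form CAGCTG, against 13.0% of all windows, namely Cplx1 at −82 from the start, Cplx2 at −162, the second window of Rab3a at −185 and the second window of Syt1 at −31. The REST part was in 0.301% of all windows and in Syn1 at −232. The other E-box form, the POU core and the Gfi1 core, which were in 14.4%, 4.39% and 8.87% of all windows, had no match in the 8. A match describes letters in a window and is not evidence of binding.

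Estimated depth was 30.3 to 48.0 M reads per library. The introduced genes followed the labels: with Dox, Atoh1 lay at 12820 to 21240 normalised counts in the 8 libraries with Atoh1 in the cassette and at 14.3 to 32.5 in the other 6. Gfi1 lay at 8119 to 12490 in the 8 libraries with its cassette against 49.7 to 113 in the other 6, and Pou4f3 at 4694 to 19880 against 27.7 to 101. Introduced and endogenous transcripts of these 3 genes were counted together. Pou4f3 with Dox was lowest in iPou4f3 (4694 and 5381), against 12878 and 10868 in iP+A, 17590 and 19883 in iG+P and 13037 and 15115 in iGPA. In comparisons with iPou4f3, and in sums that include it, the Pou4f3 level and the added factor cannot be told apart.

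Without Dox, the 9 genes were already unequal in how far they were detected. In the 14 untreated libraries, Vamp2 lay at 1732 to 2286 normalised counts and Cplx2 at 479 to 1055, while Syt4 lay at 0 to 4.07. Rab3a ranged from 212 to 451 and Syn1 from 184 to 373. Syp ranged from 44.2 to 114, Syt1 from 25.5 to 74.2, Cplx1 from 21.5 to 74.2 and Snap25 from 7.86 to 22.04. These counts are not scaled by transcript length, so they are compared between libraries and not between genes. A limma F test across the 7 untreated groups called none of the 9 (lowest adjusted p = 0.0872, Syn1), with 2 at an unadjusted p under 0.05 (Syn1 and Rab3a). It called 12.1% of all genes tested.

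**Figure D1:**
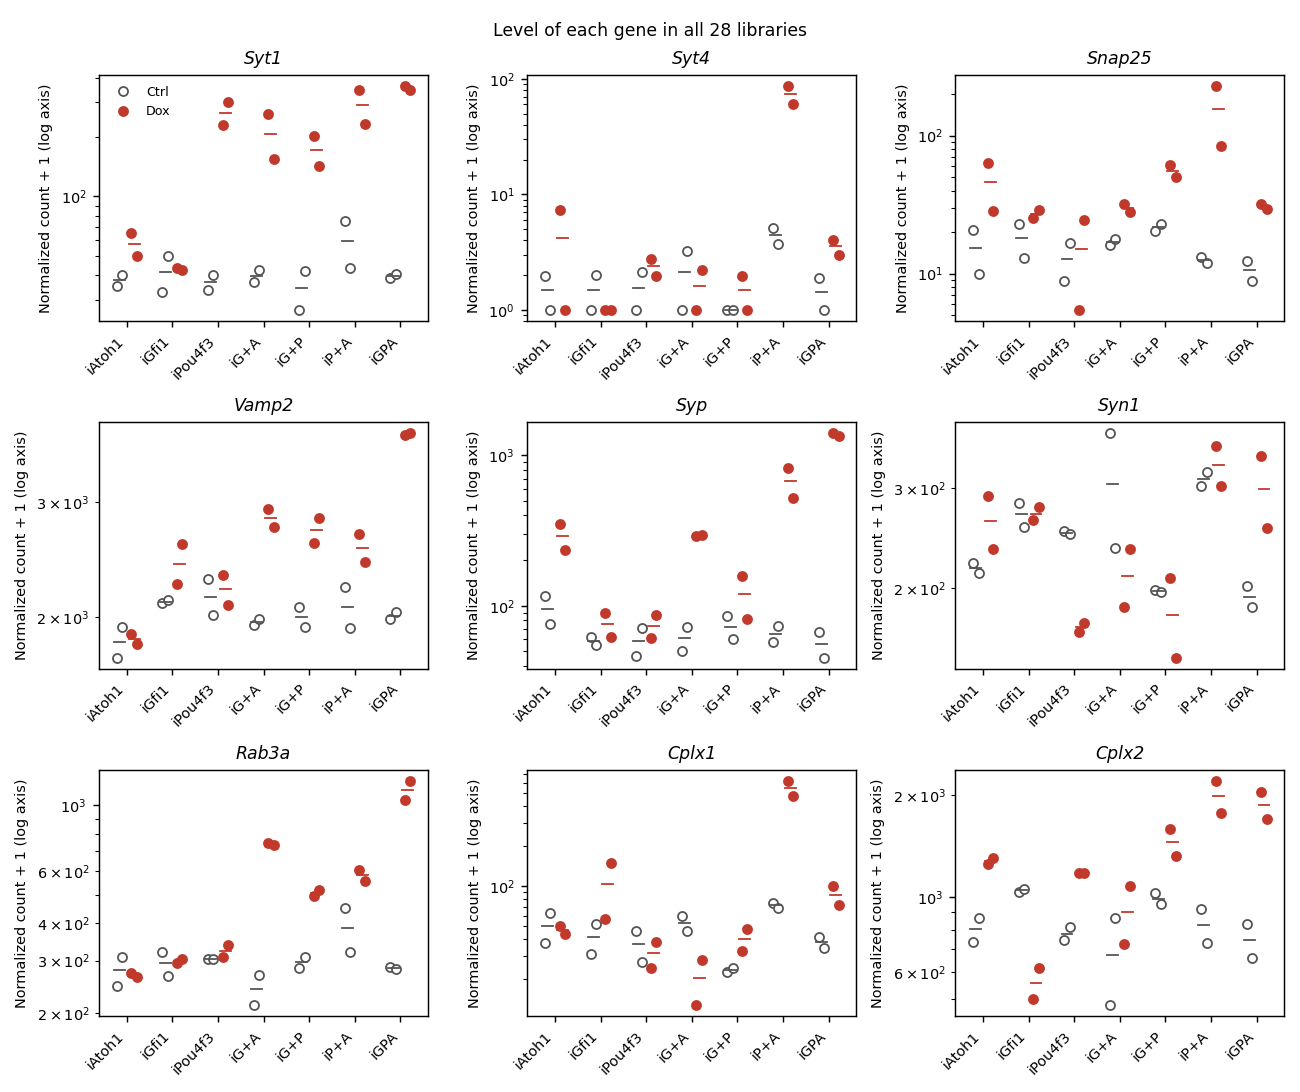
Normalised count plus 1 (log axis) of each gene in the 28 libraries by line, with open points for Ctrl, filled points for Dox and short lines for the mean of the 2 libraries of a group. Syt1 was high with Dox in every line but iAtoh1 and iGfi1, Syt4 in iP+A, and Syp in the 4 lines with Atoh1 (iAtoh1, iG+A, iP+A and iGPA).

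With Dox, 6 of the 9 genes rose in at least 1 line, and which of them rose depended on the combination of factors. Calls needed an adjusted p below 0.05 in limma and a change of 1.5 or more on the log2 scale. Syt1, Syt4, Snap25, Syp and Cplx1 rose in iP+A (5 of 9, or 4 without Syt4, against 4.70% of all genes), where Syt4 had passed the filter on low values through the iP+A Dox libraries alone and its call is not independent of that filter. Next, Syt1, Snap25, Syp and Rab3a rose in iGPA (4 of 9, against 8.65%). Syt1, Syp and Rab3a rose in iG+A (3 of 9, against 7.35%). Syp rose in iAtoh1 (1 of 9, against 2.89%), Syt1 in iPou4f3 (1 of 9, against 1.47%) and Syt1 in iG+P (1 of 9, against 5.16%). In iGfi1, 0 rose (against 2.15%), with 1 higher at an unadjusted p under 0.05. None fell past the threshold in any line, where the share of all genes that fell was 5.36% for iG+P, 5.31% for iGPA, 4.95% for iG+A, 2.67% for iGfi1, 2.58% for iP+A, 2.52% for iAtoh1 and 0.606% for iPou4f3. At an unadjusted p under 0.05, 1 was lower in iGfi1, 1 in iPou4f3 and 2 in iG+A. The median log2 fold change of the 8 genes other than Syt4 was 1.79 in iP+A, 1.43 in iGPA, 0.71 in iG+P, 0.67 in iG+A, 0.44 in iAtoh1, 0.14 in iGfi1 and 0.062 in iPou4f3 (2.32 in iP+A and 1.36 in iGPA with Syt4), where the median of all genes lay between −0.03 and 0.02 in the 7 lines. Vamp2, Syn1 and Cplx2 passed the threshold in no line.

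**Figure D2:**
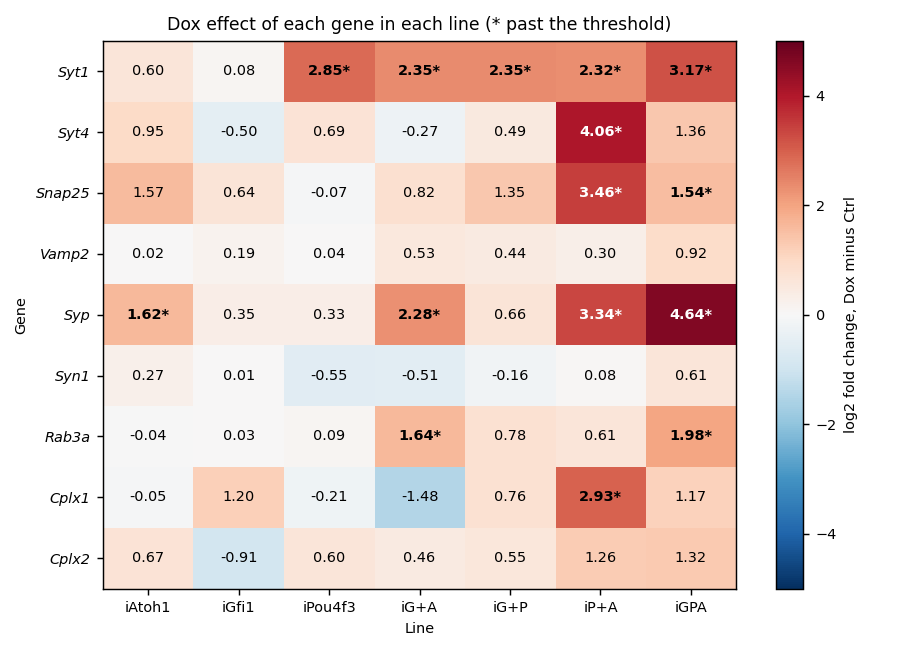
Log2 fold change of Dox against Ctrl for each gene (rows) in each line (columns), on the log2(normalised count + 1) scale, with an asterisk where the gene was called. The largest value was 4.64 for Syp in iGPA and the lowest −1.48 for Cplx1 in iG+A, which did not pass the fold threshold.

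Syt1, the calcium sensor of fast release, rose in every line with Pou4f3 and in iG+A. With Dox, it reached 364 and 346 normalised counts in iGPA, 348 and 232 in iP+A, 229.5 and 302 in iPou4f3, 261 and 154 in iG+A, and 201 and 142 in iG+P, replicate 1 first. In iAtoh1 it lay at 64.0 and 49.2 and in iGfi1 at 42.5 and 41.3. Both Dox libraries lay above both Ctrl libraries in all of these lines except iGfi1, where the groups overlapped. In the order of Dox levels, iGPA, iP+A, iPou4f3, iG+A and iG+P each overlapped with the next, and all of their libraries lay above those of iAtoh1 and iGfi1. Each Dox effect sets 2 libraries against 2, and its SE comes from 1 fit of all 28 libraries. The log2 fold change was 3.17 ± 0.33 (SE) in iGPA (adjusted p = 4.26e-07) and 2.85 in iPou4f3 (adjusted p = 2.74e-05). It was 2.35 in both iG+A and iG+P (adjusted p = 2.10e-05 and 2.31e-05) and 2.32 in iP+A (adjusted p = 4.61e-05), with the same SE. It was 0.60 in iAtoh1 (adjusted p = 0.203) and 0.08 in iGfi1 (adjusted p = 0.889). None of these calls ended when a library was left out.

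Syt4, a synaptotagmin that does not bind calcium in the usual way and is found on dense-core and other vesicles, was near absent outside 1 group. In iP+A with Dox it lay at 86.0 and 59.6 normalised counts against 4.07 and 2.76 without Dox. In the other 12 Dox libraries it lay at 0 to 6.40, where 1 read was worth about 1 normalised count. Syt4 entered the test because of the pair of iP+A Dox libraries alone, so that its log2 fold change there (4.06 ± 0.81, adjusted p = 0.00121) describes how it passed the filter as much as a test of Dox. In iAtoh1, 1 Dox library held 6.40 and the other 0, and the log2 fold change of 0.95 turned to −0.49 without iAtoh1 Dox replicate 1 (adjusted p = 0.742). The same libraries enter every comparison with iP+A, so the difference of Dox effects between iP+A and iAtoh1, 3.10, or 4.55 without that iAtoh1 library, is given as a description.

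Snap25, the SNARE protein of the plasma membrane, rose most in iP+A. It lay at 229 and 82.7 normalised counts with Dox in iP+A against 12.2 and 11.04 without (log2 fold change 3.46 ± 0.60, adjusted p = 3.40e-04). With Dox it lay at 62.2 and 27.4 in iAtoh1, 60.8 and 48.8 in iG+P, 30.9 and 26.8 in iG+A, 30.7 and 28.3 in iGPA, 24.2 and 27.8 in iGfi1, and 4.45 and 23.5 in iPou4f3. The iP+A libraries were the highest 2 of the 28, and the replicates of iP+A, iAtoh1 and iPou4f3 lay far apart. In iGPA the rise from 11.4 and 7.86 gave a log2 fold change of 1.54 (adjusted p = 0.0434), and the call ended without any one of its 4 libraries or of iG+P Ctrl replicates 1 and 2 (1.30 to 1.78, adjusted p = 0.0507 to 0.195), and with a pseudocount of 5, no filter, quantile normalisation or all untreated libraries as 1 control (1.06 to 1.54). In iAtoh1 the log2 fold change of 1.57 was not called (adjusted p = 0.0676), but was with the replicate number as a block (adjusted p = 0.0172) and without iPou4f3 Dox replicate 1 or 2 (adjusted p = 0.0306 and 0.0311). In the remaining lines the values were −0.07 to 1.35 and were not called.

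Vamp2, the SNARE protein of the vesicle, was measured with the smallest error of the 9. It lay at 3795 and 3823 normalised counts with Dox in iGPA, above every other library, against 1984 and 2032 without. Its log2 fold change there was 0.92 ± 0.09 (adjusted p = 3.59e-07), under the fold threshold. The same held at smaller size in iG+A (0.53, adjusted p = 2.40e-04), iG+P (0.44, adjusted p = 0.00131) and iP+A (0.30, adjusted p = 0.0255), in which Dox libraries lay at 2426 to 2925. In iAtoh1, iGfi1 and iPou4f3 the values were 0.02, 0.19 and 0.04 and no adjusted p was under 0.05.

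Syp, an abundant membrane protein of synaptic vesicles, rose in all 4 lines with Atoh1. With Dox it lay at 1401 and 1342 normalised counts in iGPA, 817 and 522 in iP+A, 288 and 294 in iG+A, and 347 and 234 in iAtoh1. In iG+P it lay at 156 and 80.2, in iGfi1 at 88.0 and 60.8 and in iPou4f3 at 59.6 and 85.2. All libraries of iGPA lay above all of iP+A, and those of iP+A above iG+A and iAtoh1, which overlapped with each other. The log2 fold change was 4.64 ± 0.36 in iGPA (24.99-fold, adjusted p = 1.10e-08), 3.34 in iP+A (10.4-fold, adjusted p = 1.80e-06), 2.28 in iG+A (4.84-fold, adjusted p = 6.65e-05) and 1.62 in iAtoh1 (3.08-fold, adjusted p = 0.00333). The iAtoh1 call, from 114 and 74.2 without Dox, ended without iAtoh1 Ctrl replicate 2 (1.31) or Dox replicate 1 (1.33) and with iAtoh1 alone in the fit (1.62, adjusted p = 0.0606). In the 3 lines without Atoh1 the Dox and Ctrl libraries overlapped and the values were 0.33 to 0.66.

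Syn1, which tethers vesicles to the cytoskeleton, was called in no line. With Dox it lay at 340.1 and 254 normalised counts in iGPA against 200.1 and 184 without, a log2 fold change of 0.61 ± 0.21 (adjusted p = 0.0229). In iPou4f3 both Dox libraries, 166 and 172, lay below the Ctrl libraries, 250.4 and 248 (−0.55, adjusted p = 0.154), and in iG+A 184 and 233 lay below 373.5 and 234 (−0.51, adjusted p = 0.0589). In the other 4 lines the values were −0.16 to 0.27.

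Rab3a, the GTPase of synaptic vesicles, was called in the pair of lines that express Gfi1 and Atoh1 together and in no line with 1 factor. In iG+A it lay at 746 and 736 normalised counts with Dox against 212 and 267 without (3.09-fold), and in iGPA at 1037 and 1206 against 285 and 279 (3.98-fold). The log2 fold changes were 1.64 ± 0.16 (adjusted p = 3.50e-07) and 1.98 (adjusted p = 1.94e-08). In iAtoh1 (272 and 264), iGfi1 (294.5 and 302.5) and iPou4f3 (308 and 338) they were −0.04, 0.03 and 0.09, with 1 SE of 0.16. Values under the fold threshold were measured in iG+P (494 and 517 against 283 and 307; 0.78, adjusted p = 9.64e-04) and iP+A (606 and 555 against 451 and 321; 0.61, adjusted p = 0.00981). With Dox, the libraries of iGPA lay above all others, followed by iG+A, iP+A and iG+P without overlap. The iG+A call ended without iG+A Ctrl replicate 1, the lowest library of the 28 (1.47, adjusted p = 2.11e-05), with quantile normalisation (1.47) and against all untreated libraries as 1 control (1.34), each just under the fold threshold.

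The test of the Dox effect in a combined line minus the sum of the single lines called Rab3a in iG+A (1.64 ± 0.28, adjusted p = 0.00313) and in iGPA (1.90 ± 0.32, adjusted p = 0.00333). It was the only 1 of the 9 called, where 2.99% and 2.65% of all genes were called. The iG+A value fell under the threshold without iAtoh1 Ctrl replicate 2 or iG+A Ctrl replicate 1 (1.48 and 1.47) and with quantile normalisation (1.40). Sorting is part of every Dox effect and enters such a sum more than once. With the replicate number as a block, Cplx1 was also called in iG+A (−2.64, adjusted p = 0.0373) and Syp in iGPA (2.35, adjusted p = 0.0216), both chosen after their values were seen. Without the block, Cplx1 in iG+A (−2.64, adjusted p = 0.0526) was called without iAtoh1 Ctrl replicate 2, iGfi1 Dox replicate 1, iG+A Ctrl replicate 2 or iG+A Dox replicate 2 (−3.33 to −2.83, adjusted p = 0.0264 to 0.0474), and Syt1 (1.66, adjusted p = 0.0846) without iG+A Dox replicate 2 (2.04, adjusted p = 0.0496). Cplx1 in iP+A (3.19, adjusted p = 0.0772) was called without iGfi1 Dox replicate 1 (adjusted p = 0.0497), a library of another line. In iG+P and iP+A, 0 were called (0.208% and 0.422% of all genes), with 2 in each at an unadjusted p under 0.05.

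Cplx1, a clamp and activator of fusion, rose in iP+A and lay lower with Dox in iG+A, where it fell short of the fold threshold. In iP+A it lay at 622 and 479 normalised counts with Dox against 74.2 and 67.2 without (7.79-fold; log2 fold change 2.93 ± 0.46, adjusted p = 1.19e-04). In iG+A it lay at 11.7 and 26.8 against 59.2 and 44.8 (−1.48, adjusted p = 0.0148), and passed the threshold without iG+A Ctrl replicate 2 (−1.68, adjusted p = 0.0299) or Dox replicate 2 (−2.05, adjusted p = 0.00610). The iP+A Dox libraries were the highest of the 28 and the first iG+A Dox library the lowest. In iGfi1 it lay at 56.1 and 149 against 30.0 and 51.0 (1.20, adjusted p = 0.0598), and was called without the lower Dox library, replicate 1 (1.90, adjusted p = 0.0208). In iGPA it lay at 99.3 and 70.7 against 40.2 and 33.4 (1.17, adjusted p = 0.0439), and in iAtoh1, iPou4f3 and iG+P the values were −0.05, −0.21 and 0.76 with no adjusted p under 0.05.

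Cplx2, a second complexin, had an adjusted p under 0.05 in 4 lines, lower with Dox in iGfi1 and higher in iAtoh1, iP+A and iGPA, always under the fold threshold. In iGfi1 it lay at 501 and 616 normalised counts with Dox against 1034 and 1055 without (0.535-fold; −0.91 ± 0.22, adjusted p = 0.00607). In iGPA it lay at 2033 and 1690 against 830.2 and 658 (1.32, adjusted p = 1.02e-04), and in iP+A at 2197 and 1764 against 921 and 733 (1.26, adjusted p = 4.46e-04). In iAtoh1 1253 and 1297 lay above 738 and 866 (0.67, adjusted p = 0.0377). The groups did not overlap in these 4 lines. In iPou4f3, iG+P and iG+A the values were 0.46 to 0.60 with no adjusted p under 0.05.

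Whether a factor changed a gene's response was tested as the difference between the Dox effects of 10 pairs of lines. Adding Gfi1 to Atoh1 (iG+A against iAtoh1) gave larger effects on Rab3a (by 1.67 ± 0.23, adjusted p = 7.17e-05) and Syt1 (by 1.74 ± 0.47, adjusted p = 0.0164), that is 2 of 9 against 6.87% of all genes. The Rab3a difference was under the fold threshold when the sorted Dox libraries were compared directly (1.46, adjusted p = 1.89e-06). The Syt1 call ended without iAtoh1 Dox replicate 2, iG+A Ctrl replicate 1 or iG+A Dox replicate 1 (1.36 to 1.64, adjusted p = 0.0575 to 0.0721) and with these 2 lines alone in the fit (1.74, adjusted p = 0.0893). Adding Gfi1 to Pou4f3 (iG+P against iPou4f3) called 0 of 9, against 7.63%, with 2 larger at an unadjusted p under 0.05. Snap25, with a difference of 1.43, was called without iPou4f3 Dox replicate 2 (2.51, adjusted p = 0.0385) and with the sorted Dox libraries compared directly (2.26, adjusted p = 0.00811).

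Adding Pou4f3 to Atoh1 (iP+A against iAtoh1) gave larger effects on Cplx1 (by 2.98 ± 0.65, adjusted p = 0.00883) and Syt1 (by 1.72, adjusted p = 0.0380), 2 of 9 against 2.78% of all genes. The Cplx1 call ended without iP+A Dox replicate 1 (2.79, adjusted p = 0.0502). The Syt1 call ended without any one iAtoh1 library, iP+A Ctrl replicate 2 or iP+A Dox replicate 1 (1.32 to 1.90, adjusted p = 0.0531 to 0.181), with quantile normalisation (1.63, adjusted p = 0.0510) and with these lines alone in the fit (1.72, adjusted p = 0.158). For Syp the difference of 1.72 ± 0.51 was not called (adjusted p = 0.0560), but was with the replicate number as a block (adjusted p = 0.0147) and without iAtoh1 Ctrl replicate 2, iG+P Dox replicate 1 or iG+P Dox replicate 2 (1.72 to 2.03). Adding Pou4f3 to Gfi1 (iG+P against iGfi1) gave a larger effect on Syt1 (by 2.27, adjusted p = 0.00921), 1 of 9 against 1.85%. That call ended without iGfi1 Ctrl replicate 2, iG+P Ctrl replicate 1 or iG+P Dox replicate 1 (1.94 to 2.02, adjusted p = 0.0533 to 0.0615) and with these lines alone in the fit (2.27, adjusted p = 0.0603). Cplx2, 1.46 here, was called without iGfi1 Dox replicate 2, iG+P Ctrl replicate 1 or iG+P Dox replicate 2 (1.52 to 1.61).

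Adding Pou4f3 to Gfi1 and Atoh1 (iGPA against iG+A) gave larger effects on Syp (by 2.36 ± 0.51, adjusted p = 0.0102) and Cplx1 (by 2.65 ± 0.65, adjusted p = 0.0235), 2 of 9 against 2.20% of all genes. The Syp call ended without iGPA Ctrl replicate 2 (2.09, adjusted p = 0.0544). The Cplx1 call ended without iG+A Ctrl or Dox replicate 1, either iGPA Ctrl library or iGPA Dox replicate 1 (2.09 to 2.78, adjusted p = 0.0593 to 0.0987) and with these lines alone in the fit (2.65, adjusted p = 0.0998).

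Adding Atoh1 was tested in 3 pairs of lines. Against iGfi1, iG+A had larger effects on Syt1 (by 2.27, adjusted p = 0.00198), Syp (by 1.94, adjusted p = 0.00936) and Rab3a (by 1.60, adjusted p = 1.05e-04) and a smaller one on Cplx1 (−2.68, adjusted p = 0.00560), 4 of 9 against 8.54% of all genes. The Syp call ended without iG+A Ctrl replicate 1 (1.66, adjusted p = 0.0503), and that of Rab3a without it or iGfi1 Ctrl replicate 1 (1.43 and 1.47), with quantile normalisation (1.35) and with Dox libraries compared directly (1.31). The Cplx1 call ended with these lines alone in the fit (adjusted p = 0.0602). Cplx2, 1.37, was called without iGfi1 Dox replicate 2, iG+A Ctrl replicate 2 or iG+A Dox replicate 1 (1.52 to 1.79). Against iPou4f3, iP+A had larger effects on Syp (by 3.00, adjusted p = 0.00194), Cplx1 (by 3.14, adjusted p = 0.00978) and Snap25 (by 3.53 ± 0.85, adjusted p = 0.0264), 3 of 9 against 1.61%. The Snap25 call ended without iPou4f3 Ctrl replicate 2, iPou4f3 Dox replicate 1, either iP+A Ctrl library or iP+A Dox replicate 1 (2.45 to 3.60, adjusted p = 0.0578 to 0.184) or with these lines alone in the fit (3.53, adjusted p = 0.182), and the Cplx1 call without replicate 1 of iPou4f3 Ctrl, iPou4f3 Dox or iP+A Dox (2.75 to 2.95, adjusted p = 0.0560 to 0.0668). Against iG+P, iGPA had a larger effect on Syp (by 3.98, adjusted p = 5.09e-05), 1 of 9 against 5.90%. Against iAtoh1, iGPA had larger effects on Syp (by 3.03, adjusted p = 3.35e-04), Syt1 (by 2.57, adjusted p = 6.83e-04) and Rab3a (by 2.02, adjusted p = 6.44e-06), 3 of 9 against 9.03%. No library ended the calls of these last 2 comparisons. Many of the 10 pairs share a line, so their values are not independent.

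**Figure D3:**
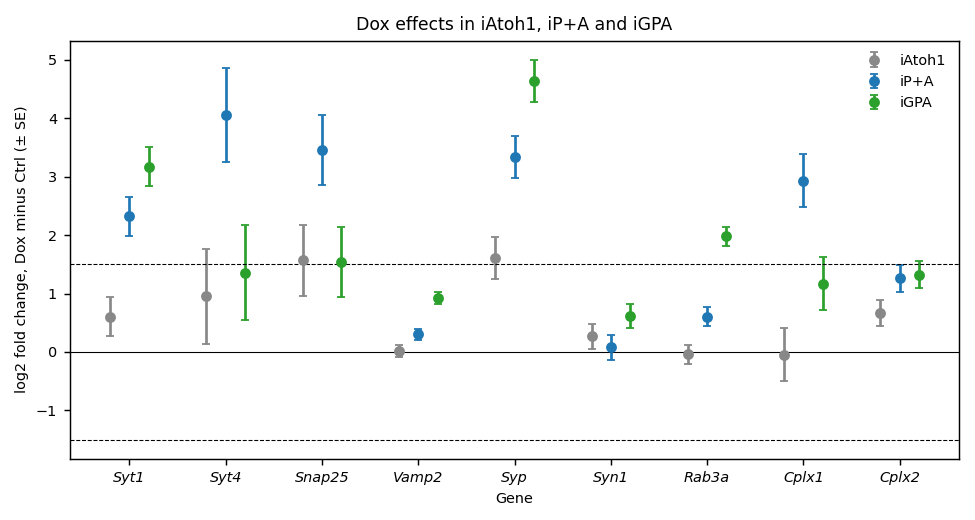
Log2 fold change of Dox against Ctrl with 1 SE for each gene in iAtoh1, iP+A and iGPA, with dashed lines at the fold threshold of 1.5 in each direction. Syt4, Snap25 and Cplx1 had their highest points in iP+A, and Syp, Rab3a and Vamp2 in iGPA.

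Between iP+A and iGPA, which differ by Gfi1, no difference of Dox effects was called for the 9 genes, and the values lay on both sides of 0. They were below 0, a smaller effect in iGPA, for Syt4 (−2.70 ± 1.15), Snap25 (−1.92 ± 0.85) and Cplx1 (−1.76 ± 0.65), and above 0 for Rab3a (1.38 ± 0.23), Syp (1.31 ± 0.51), Syt1 (0.85 ± 0.47) and Vamp2 (0.62 ± 0.13). None passed both thresholds (0 of 9, against 7.60% of all genes), with adjusted p = 4.26e-04 for Rab3a, 0.00345 for Vamp2 and 0.0658 to 0.222 for the other 5 named, and 3 larger and 3 smaller at an unadjusted p under 0.05. With the replicate number as a block, Snap25 was called (−1.92, adjusted p = 0.0384). Cplx1 was called without either iGfi1 Dox or either iG+A Dox library (−1.76, adjusted p = 0.0412 to 0.0489), with these lines alone in the fit (−1.76, adjusted p = 0.0212), with a pseudocount of 5 (−1.77) and with quantile normalisation (−2.11), and Rab3a without iP+A Ctrl replicate 2 (1.62, adjusted p = 1.73e-04). Comparing the sorted Dox libraries directly, with no untreated libraries, called Cplx1 (−2.69, adjusted p = 1.59e-04) and Snap25 (−2.19, adjusted p = 0.00785) lower in iGPA, that is 2 genes besides Syt4, against 10.5% of all genes. Syt4 was 4.37 lower on the log2 scale, a description, since the same iP+A Dox libraries had admitted it to the test. Both sides of that comparison were sorted mVenus+ cells.

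The other genes of the presynaptic machinery were followed with a list of 88 genes in 7 roles, of which 86 were tested. In iGPA 18 rose and 1 fell, in iG+A 15 and 4, in iP+A 13 and 0, in iG+P 9 and 4, in iAtoh1 5 and 3, in iPou4f3 2 and 1, and in iGfi1 1 and 2. As shares of the 86, the rises were 20.9% in iGPA (8.65% of all genes), 17.4% in iG+A (7.35%), 15.1% in iP+A (4.70%), 10.5% in iG+P (5.16%), 5.81% in iAtoh1 (2.89%), 2.33% in iPou4f3 (1.47%) and 1.16% in iGfi1 (2.15%). The falls were 1.16% in iGPA, 4.65% in iG+A and in iG+P, 3.49% in iAtoh1, 1.16% in iPou4f3 and 2.33% in iGfi1, against 5.31%, 4.95%, 5.36%, 2.52%, 0.606% and 2.67% of all genes. In iP+A, 9 of the 86 were lower at an unadjusted p under 0.05. The median log2 fold change of the list was 0.34 in iGPA against 0.01 over all genes, and −0.04 in iAtoh1 against −0.01. In iGPA the rises comprised 5 of 16 calcium sensors, 4 of 10 active zone scaffold genes, 3 of 11 Rab3 and docking genes, 3 of 9 recycling genes, 2 of 15 fusion regulators and 1 of 13 SNARE genes, with 0 of 12 vesicle membrane or coat genes.

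**Figure D4:**
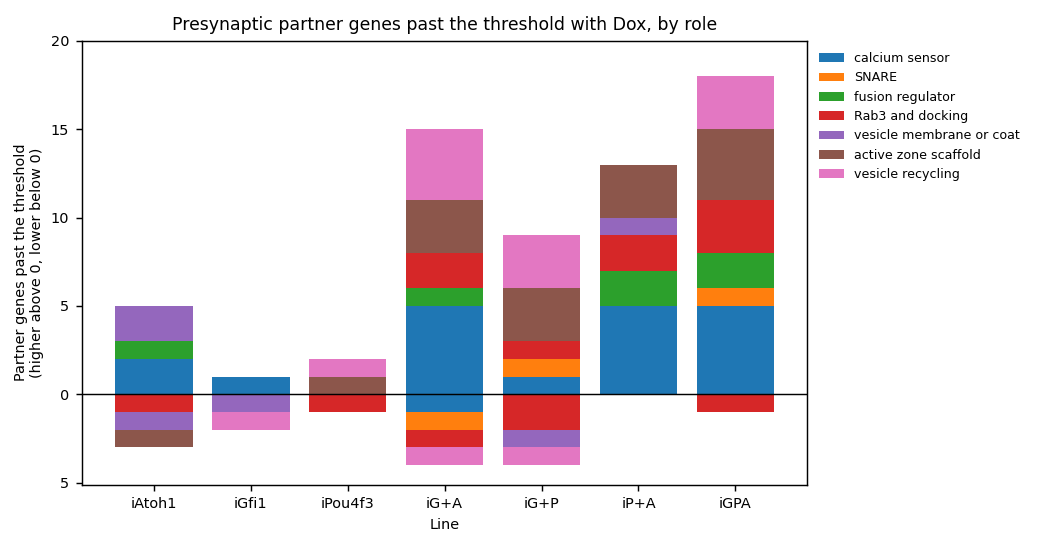
Number of the 86 presynaptic genes that passed the threshold with Dox in each line, higher above 0 and lower below 0, coloured by role. The bars reach 18 higher in iGPA, 15 in iG+A and 13 in iP+A.

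Among calcium sensors, Syt13, an atypical synaptotagmin, lay at 1380 and 1502.5 normalised counts with Dox in iAtoh1 against 149.6 and 161 without (3.21 ± 0.17, adjusted p = 8.04e-10) and at 5372 and 4779 against 222 and 170.01 in iGPA (4.70, adjusted p = 1.23e-12). Syt17 rose by 2.08 ± 0.37 in iAtoh1 (adjusted p = 5.72e-04) and 3.82 in iGPA (adjusted p = 1.78e-07). The active zone gene Rimbp2, whose product links release sites to calcium channels, moved in opposite directions in the 2 lines. It lay at 96.4 and 76.8 with Dox against 288 and 236 without in iAtoh1 (−1.59 ± 0.43, adjusted p = 0.0118), and at 6191 and 5168 against 101 and 55.2 in iGPA (6.22, adjusted p = 2.53e-09). Pclo, the scaffold piccolo, rose by 3.51 ± 0.33 in iGPA (adjusted p = 1.10e-07).

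Among Rab3 and docking genes, Rph3al, a Rab effector, lay at 883 and 1079 with Dox against 28.0 and 18.3 without in iGPA (5.37 ± 0.40, adjusted p = 7.89e-09), and Rab3b rose by 3.07 (adjusted p = 1.92e-08). Rab27b, a GTPase of secretory granules, fell by 2.42 in iGPA (adjusted p = 1.31e-05) and by 1.56 in iAtoh1 (adjusted p = 0.00279). For fusion regulators and SNARE genes in iGPA, Stxbp5l rose by 2.82 and Vamp1 by 1.78 ± 0.43 (adjusted p = 0.00584 and 0.00255). The recycling genes Pacsin1 and Dnm1 rose by 3.68 and 2.64 in iGPA (adjusted p = 2.63e-06 and 5.46e-09). In iAtoh1, Cadps, which primes dense-core vesicles, rose by 2.07 ± 0.34 (adjusted p = 2.85e-04), the vesicle proteins Sv2b and Synpr by 2.03 and 1.86 (adjusted p = 0.00328 and 0.00124), and Syn2 fell by 1.93 ± 0.39 (adjusted p = 0.00173).

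Markers of other cell types moved in the same libraries. Of 11 neuron markers, 10 rose in iP+A and 8 rose and 1 fell in iGPA, against 4 and 1 in iAtoh1, 3 and 2 in iG+A, 2 and 1 in iG+P, 2 and 0 in iPou4f3 and 0 and 1 in iGfi1. Their summed level was 29040 and 23110 normalised counts with Dox in iP+A, 7942 and 8044 in iGPA, 948 to 4107 in the other Dox libraries and 1179 to 2207 without Dox. Of 12 dense-core granule markers, 7 rose and 1 fell in iP+A, 6 and 1 in iGPA, 4 and 1 in iG+A, 2 and 1 in iG+P, 1 and 0 in each of iGfi1 and iPou4f3 and 0 and 0 in iAtoh1. The 7 in iP+A include Scg2 (15.4 and 15.4 with Dox), which passed the filter on low values only with the iP+A Dox libraries. Its call is not independent of that filter. The shares of all genes that rose and fell in each line, given above, are the background of these counts. The sum of the granule markers was 8782 and 7469 in iP+A, 5873 and 5462 in iGPA, 1362 to 3483 in the other Dox libraries and 1450 to 2459 without Dox. Of 6 hair cell markers, 4 rose in iGPA, 3 in iG+A, 2 in each of iP+A and iG+P, 1 in iPou4f3 and 0 in iAtoh1 and iGfi1, with sums of 22250 to 77060 with Dox and 14670 to 72450 without. The same shares are the background of these counts. Most of each sum was Cdh23, which was called in no line and lay at 10367 and 36932 in the iGPA Ctrl libraries. The sums therefore do not show how the other hair cell markers changed. The iP+A Dox libraries, in which Syt4, Snap25 and Cplx1 were highest, thus also held the highest neuron and granule sums, and the part of these cells in the values of the release genes was not tested.

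**Figure D5:**
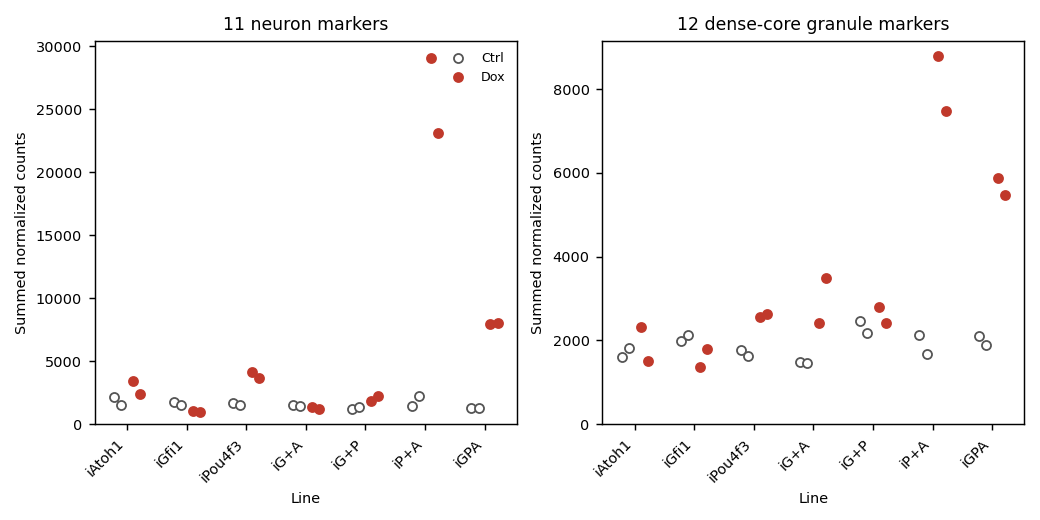
Summed normalised counts of 11 neuron markers (left) and 12 dense-core granule markers (right) in each library by line, with open points for Ctrl and filled points for Dox. The pair of iP+A Dox libraries lies highest in both panels (29040 and 23110, and 8782 and 7469), followed by iGPA with Dox.

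Most called markers of other EB tissues were lower with Dox. Of all genes, 5.31% fell in iGPA, 4.95% in iG+A, 5.36% in iG+P, 2.52% in iAtoh1, 2.67% in iGfi1, 2.58% in iP+A and 0.606% in iPou4f3. The shares that rose were 8.65% in iGPA, 7.35% in iG+A, 5.16% in iG+P, 2.89% in iAtoh1 and 2.15% in iGfi1. All 7 fibroblast markers fell in iGPA, 5 in iG+A, 4 in iG+P, 3 in iAtoh1, 2 in iGfi1, 1 in iP+A and 0 in iPou4f3, with a sum of 7710 to 121100 with Dox against 48630 to 164400 without. Of 7 blood markers, 4 fell in iAtoh1, 4 in iP+A, 3 in iG+A, 3 in iGPA, 1 in iG+P and 0 in iGfi1 and iPou4f3 (sums of 13750 to 360000 against 67330 to 481800). Of 7 pluripotency markers, 5 fell in iP+A, 4 in iG+A, 3 in iGPA and 1 in iG+P. Of 6 mesoderm markers, 1 fell in each line with Gfi1, and of 6 endoderm markers 2 fell in iG+P, 1 in iPou4f3 and 1 in iG+A, with 1 higher in iG+A. Of 5 neural progenitor markers, 3 rose in iG+A, 2 in iGPA, 1 in iAtoh1, and 1 rose and 1 fell in iG+P and in iGfi1. No listed marker was at 0 in all libraries, and the part of these changes in the values of the release genes was not tested.

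The genes whose levels were most alike were named by Pearson's r on the log2 scale over the 28 libraries, which share lines and treatment, and r is given as a description. For Syp they were Pou3f1 (0.961) and Vwa5b2 (0.959), for Vamp2 Rab3gap2 (0.942) and Nol4l (0.940), and for Syt1 Miat (0.931) and Raver2 (0.927). For Rab3a they were Lingo3 (0.929) and Dmpk (0.926), for Syt4 Maneal (0.905) and Spg21 (0.864), and for Cplx2 Fam53b (0.898) and Jup (0.896). For Cplx1 they were Caskin1 (0.870) and Lrrc73 (0.869), for Snap25 Chrnb2 (0.812) and Tcte2 (0.810), and for Syn1 Tmem150c (0.808) and Noxred1 (0.788). None of the 9 was among the 2 nearest genes of another.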

How the data were processed

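Libraries for mRNA were made from mVenus+ cells of 7 lines after 48 h of Dox and from untreated EBs, with 2 clones per group (28 libraries, 14 groups). The authors trimmed reads with cutadapt, quantified UCSC knownGene transcripts of mm9 with Kallisto, summed them to genes with tximport and normalised them with DESeq2. The deposited values are log2(normalised count + 1), and were returned to normalised counts for the levels. Normalised counts up to 20 were whole multiples of 1 read (within 0.05 of a read) in 72.4% to 79.4% of cases, too few to recover reads, so count models were not run and the depths are estimates. Genes (Entrez IDs, 19314 named from RefSeq) with 10 normalised counts in 2 libraries were fitted in 14 groups with limma 3.58.1 (R 4.3.3, variance trend, 14 residual degrees of freedom), with Benjamini-Hochberg adjustment over 16837 genes within each contrast. Fold changes include the pseudocount of 1, so that changes of low genes are understated. Replicates are clones per the series text, and p-values measure the spread between them. No source used here states that equal replicate numbers mark the same clone with and without Dox. Deviations from group means of equally numbered libraries correlated by 0.103 to 0.246 in the 7 lines, and a fit with the replicate number as a block was run on that ground. The members and gene lists were chosen with earlier results of these data known. Named genes were the 9 members, within each role the 2 largest rises and the largest fall past the threshold in iAtoh1 and iGPA with both replicates moving alike, the 2 genes nearest to each member, and the 3 introduced genes. A gene that this rule named is not reported here. Promoter windows came from RefSeq (GRCm38.p6) and were not joined to the NCBIM37 positions.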

Additional observations from a re-analysis of the deposited data

Results flagged for a closer look

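The Dox effect of the same gene differed between lines past the threshold in 18 tests of the difference itself, on the log2 scale. For Syt1 the differences were 1.74 for iG+A minus iAtoh1, 1.72 for iP+A minus iAtoh1, 2.57 for iGPA minus iAtoh1, 2.27 for iG+P minus iGfi1 and 2.27 for iG+A minus iGfi1. For Syp they were 2.36 for iGPA minus iG+A, 1.94 for iG+A minus iGfi1, 3.00 for iP+A minus iPou4f3, 3.98 for iGPA minus iG+P and 3.03 for iGPA minus iAtoh1. For Rab3a they were 1.67 for iG+A minus iAtoh1, 1.60 for iG+A minus iGfi1 and 2.02 for iGPA minus iAtoh1. For Cplx1 they were 2.98 for iP+A minus iAtoh1, 2.65 for iGPA minus iG+A, −2.68 for iG+A minus iGfi1 and 3.14 for iP+A minus iPou4f3. For Snap25 it was 3.53 for iP+A minus iPou4f3. The adjusted p of these limma tests ran from 6.44e-06 (Rab3a, iGPA minus iAtoh1) to 0.0380 (Syt1, iP+A minus iAtoh1). The 18 share lines, and are not independent.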

How the results depend on the processing

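Alternatives were run 1 at a time, and counts are of the 9 genes unless partner genes are named. The alternatives for effects beyond the sum and for partner genes were added after the data were seen. With the replicate number as a block (replicate block), the count called up in iAtoh1 was 2, that of different effects for iGPA minus iP+A was 1, and those beyond the sum were 2 for iG+A minus sum of iGfi1 and iAtoh1 and 2 for iGPA minus sum of iGfi1 and iPou4f3 and iAtoh1. The block changed no other call of the 9 genes except that of Syp for iP+A minus iAtoh1. With quantile normalization, up in iAtoh1 was 2, down in iG+A 1 and iGPA minus iP+A 1, and partner genes down were 1 in iP+A and 3 in iGPA. A pseudocount of 0.5, or a fold threshold of 1 on the log2 scale, gave 1 down in iG+A. That fold threshold also called Cplx1 (1.17) and Cplx2 (1.32) up in iGPA and Cplx2 (1.26) up in iP+A. Among different effects it added Rab3a for iGPA minus iP+A (1.38) and for iGPA minus iG+P (1.21). It also added Cplx2 for iG+P minus iGfi1 (1.46) and iG+A minus iGfi1 (1.37), and Syn1 for iGPA minus iG+A (1.13). Partner counts at that threshold are not given here. A pseudocount of 5 gave 2 for iGPA minus iP+A, 4 for iP+A minus iAtoh1, and beyond the sum 2 for iG+A minus sum of iGfi1 and iAtoh1 and 1 for iP+A minus sum of iPou4f3 and iAtoh1. Rescaling by the 75th percentile and a filter of 50 each gave 2 beyond the sum for iG+A minus sum of iGfi1 and iAtoh1, and the former 2 partner genes up in iGfi1. All untreated libraries as 1 control gave 2 up in iAtoh1 and 2 in iG+P, and partner genes of 9 up in iAtoh1, 2 up in iGfi1, 0 down in iPou4f3, 1 down in iP+A and 2 down in iGPA. With only the lines compared in the fit, which leaves fewer libraries, 0 were up in iAtoh1, with 3 partner genes up, and the counts were 1 for iG+A minus iAtoh1, 2 for iGPA minus iP+A, 1 for iP+A minus iAtoh1, 0 for iG+P minus iGfi1 and 1 for iGPA minus iG+A. Comparing Dox libraries directly gave 1 for iG+A minus iAtoh1 (Rab3a was lost), 1 (Snap25) for iG+P minus iPou4f3 and 3 for iGPA minus iP+A. Rab3a was also lost for iG+A minus iGfi1 (1.31). Syt4 was added for iP+A minus iAtoh1 (4.74) and iP+A minus iPou4f3 (4.95), and every other call of different effects stayed. Among values larger than 1 SE in size or called, those that changed sign were Cplx1 in iG+P (−0.091 against all untreated libraries), Syn1 for iGPA minus iP+A (−0.15) and Syt1 for iP+A minus iPou4f3 (0.11) with Dox libraries compared directly, and Syn1 for iGPA minus iAtoh1 (−0.010) with quantile normalization. Counts that involve iP+A include Syt4 wherever it passed, though the iP+A Dox libraries alone admitted it to the test. The causes were not tested, apart from the smaller number of libraries named.

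Leaving out 1 library at a time gave 0 to 2 up in iAtoh1, 0 to 1 up in iGfi1 and 0 to 1 down in iG+A. Different effects ran from 1 to 2 for iG+A minus iAtoh1, 2 to 5 for iG+A minus iGfi1, 0 to 2 for iG+P minus iGfi1, 0 to 1 for iG+P minus iPou4f3, 0 to 2 for iGPA minus iG+A, 0 to 1 for iGPA minus iP+A, 0 to 3 for iP+A minus iAtoh1 and 1 to 3 for iP+A minus iPou4f3. Beyond the sum, they ran from 0 (without iG+A Ctrl replicate 1) to 3 (without iG+A Dox replicate 2) for iG+A minus sum of iGfi1 and iAtoh1, and from 0 to 1 (without iGfi1 Dox replicate 1) for iP+A minus sum of iPou4f3 and iAtoh1. Partner genes up ran from 4 to 8 in iAtoh1 (8 without Ctrl replicate 1) and 0 to 2 in iGfi1. Partner genes down ran from 2 to 5 in iAtoh1 (5 without Ctrl replicate 2), 2 to 4 in iG+A (2 without Ctrl replicate 1), 1 to 3 in iGPA (3 without Dox replicate 1), 1 to 2 in iGfi1 (1 without Dox replicate 1) and 0 to 1 in iP+A (1 without Ctrl replicate 1 or Dox replicate 2). Syt4 ran from −0.49 to 2.40 in iAtoh1 and from −2.67 to 0.22 for iG+A minus iAtoh1, and changed sign without iAtoh1 Dox replicate 1. Among the calls with Dox, those of Snap25 in iGPA and of Rab3a in iG+A also ended without single libraries. The single libraries that end or make a call of 1 gene are named beside it in the report. Syt4 and Snap25, with few reads in most libraries, have the largest errors of the 9.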
